A study of Homo sapiens with 4 samples.

Results

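The sestrins and the other brakes on mTORC1 were read as 7 genes: SESN1, SESN2, SESN3, DDIT4, DEPTOR, TSC1 and TSC2. They were chosen by symbol, and all 7 were found by gene ID among the 61852 genes of each deposited table and were high enough to test. RNA came from H1299, an established human line of non-small-cell lung carcinoma whose genotype the labels give as p53-/-. Wild-type p53 (p53WT) was expressed in the cells of 2 libraries and CASM34 in those of the other 2. CASM34 is a mutant in the words of the design text, and the series title places it among synonymous mutations found in cancer. The labels give no treatment, no vector, promoter or clone for the expressed p53, and do not say whether replicates are separate cultures, so the p-values cover the spread among these 4 libraries only, and that spread may be technical.

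mTORC1 is a protein kinase complex that drives protein synthesis and growth when amino acids, growth factors and energy are at hand. Sestrins hold it back: SESN2 and SESN1 bind GATOR2 when leucine is scarce, which leaves GATOR1 free to switch off the RAG GTPases that bring mTORC1 to the lysosome. DDIT4 (also called REDD1) acts through the complex of TSC1 and TSC2, which switches off the mTORC1 activator RHEB, and DEPTOR binds mTOR itself. SESN1, SESN2 and DDIT4 are known targets of p53, SESN2 and DDIT4 also of the stress factor ATF4, DDIT4 of the hypoxia factor HIF1, and SESN3 of FOXO factors.

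Promoter windows from RefSeq (GRCh38.p14, from 250 bases before to 50 bases after a start) were found for 6 of the 7 genes. DEPTOR had no entry. Of the windows, 4 are shown: the window of SESN1 that holds a p53 half-site, those of SESN2 and DDIT4, whose levels were higher in both CASM34 libraries, and that of SESN3, whose level was lower in both. Each is written 5′ to 3′ along the gene's strand, and capitals mark matches on either strand to ACGTG (core of the hypoxia response element), CCAAT, TGATGNAA (the composite C/EBP-ATF element read by ATF4), GTAAACA (FOXO) and the p53 half-site.
SESN1, internal start, minus strand, chr6:109008939-109009238: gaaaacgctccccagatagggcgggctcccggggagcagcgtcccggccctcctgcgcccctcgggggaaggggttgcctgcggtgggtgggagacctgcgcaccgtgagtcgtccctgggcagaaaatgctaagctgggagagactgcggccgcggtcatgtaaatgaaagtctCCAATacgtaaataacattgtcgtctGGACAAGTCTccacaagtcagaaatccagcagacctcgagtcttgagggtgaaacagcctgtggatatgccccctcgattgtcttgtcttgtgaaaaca
SESN2, plus strand, chr1:28259268-28259567: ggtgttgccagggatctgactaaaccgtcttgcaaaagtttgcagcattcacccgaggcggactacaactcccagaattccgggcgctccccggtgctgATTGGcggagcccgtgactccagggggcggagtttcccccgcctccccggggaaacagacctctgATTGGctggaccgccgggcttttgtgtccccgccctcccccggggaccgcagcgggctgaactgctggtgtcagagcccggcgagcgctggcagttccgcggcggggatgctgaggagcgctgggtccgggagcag
DDIT4, plus strand, chr10:72273674-72273973: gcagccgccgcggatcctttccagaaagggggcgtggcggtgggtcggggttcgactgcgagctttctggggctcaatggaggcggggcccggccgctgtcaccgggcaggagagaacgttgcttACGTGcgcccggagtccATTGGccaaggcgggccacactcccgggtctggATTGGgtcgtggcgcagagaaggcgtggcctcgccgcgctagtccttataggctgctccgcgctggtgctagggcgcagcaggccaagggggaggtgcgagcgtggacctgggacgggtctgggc
SESN3, minus strand, chr11:95232426-95232725: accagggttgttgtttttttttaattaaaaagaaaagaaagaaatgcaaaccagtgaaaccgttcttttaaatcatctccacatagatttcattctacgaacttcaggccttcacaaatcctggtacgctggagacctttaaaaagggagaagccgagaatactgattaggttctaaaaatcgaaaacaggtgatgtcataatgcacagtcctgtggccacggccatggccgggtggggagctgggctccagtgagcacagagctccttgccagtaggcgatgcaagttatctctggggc

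The p53 half-site of SESN1 began at base 202 of its window, and 6.63% of all 35116 windows of 300 bases held at least 1 such match. The window also held 1 CCAAT match, and the other 2 windows of SESN1 held no p53 half-site. SESN2 had 2 CCAAT matches and DDIT4 had 2 CCAAT matches and 1 ACGTG match, where 34.6% and 21.4% of all windows held these letters. The window of SESN3 held none of the 5 motifs, nor did that of TSC1, which was also lower in both CASM34 libraries and is not shown. In the first of the 2 windows of TSC2, at chr16:2047735-2048034, ACGTG matched on both strands, at bases 137 and 138, and overlapped a TGATGNAA match at base 141, a match that 3.62% of all windows held. GTAAACA, held by 3.42% of all windows, was in no window of these genes. GC content was 67% in the SESN2 window, 69.7% in that of DDIT4 and 45% in that of SESN3. These are matches of letters only.

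The libraries held 18086983 to 26906095 counts. The p53 targets CDKN1A and MDM2 rose by 0.38 and 0.23 on the log2 scale (both SE 0.05), with edgeR adjusted p = 0.00274 and 0.0255. MDM2 did not pass without p53WT replicate 1 or p53WT replicate 2 (edgeR adjusted p = 0.204 and 0.0516), and neither gene passed with an effective length offset (edgeR adjusted p = 0.175 for CDKN1A and 0.420 for MDM2) or in limma on log2 TPM (adjusted p = 0.255 to 0.497). Over all genes, 3 passed with the effective length offset and 0 in limma on log2 TPM. Regressed on transcript GC content, the log2 level had slopes of -0.0585 and -0.0549 per 10 percentage points in p53WT. The slopes were 0.0735 and 0.0399 in CASM34, so GC-rich transcripts read higher in CASM34. With an offset for the trend on GC content and transcript length, CDKN1A and MDM2 passed at 0.26 and 0.27 (edgeR adjusted p = 0.0403 and 0.0374). All 13 mitochondrially encoded mRNAs lay above 0, 2 of them past the test, and their summed level was 10354 to 13544 CPM (counts scaled per library size with TMM factors) in p53WT and 13548 to 17264 CPM in CASM34. The epithelial keratins KRT8 and KRT18 and the mesenchymal VIM were abundant (501 to 4484 CPM), EPCAM and CDH1 were at most 0.310 CPM, and the lung genes SFTPB and SCGB1A1 were at 0. Of other lung genes, SFTPC reached 4 and 5 counts in CASM34 against 0 in each p53WT library, and NKX2-1 lay at 0.138 and 0.232 CPM in p53WT and at 0.300 and 0.658 CPM in CASM34. Of 8 blood cell markers, the leukocyte genes PTPRC and CD3E and the red cell gene HBB were at 0 in all 4 libraries.

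No sestrin or other brake on mTORC1 passed the test between CASM34 and p53WT. The count was 0 of 7 by edgeR's quasi-likelihood test (adjusted p under 0.05 over all 15965 genes tested), where 1.95% of all genes passed, 1.61% as higher and 0.345% as lower in CASM34. At an unadjusted p under 0.05 there were 3 of the 7, SESN2, SESN3 and DDIT4, against 17.1% of all genes. DESeq2 and limma-voom also called 0. In 5 of the 7 the CPM values of the groups did not overlap, which was so for 47.9% of all tested genes. The median log2 fold change was 0.10 over the 7 genes and -0.00055 over all tested genes, with 5 genes above 0 and 2 below.

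**Figure D1:**
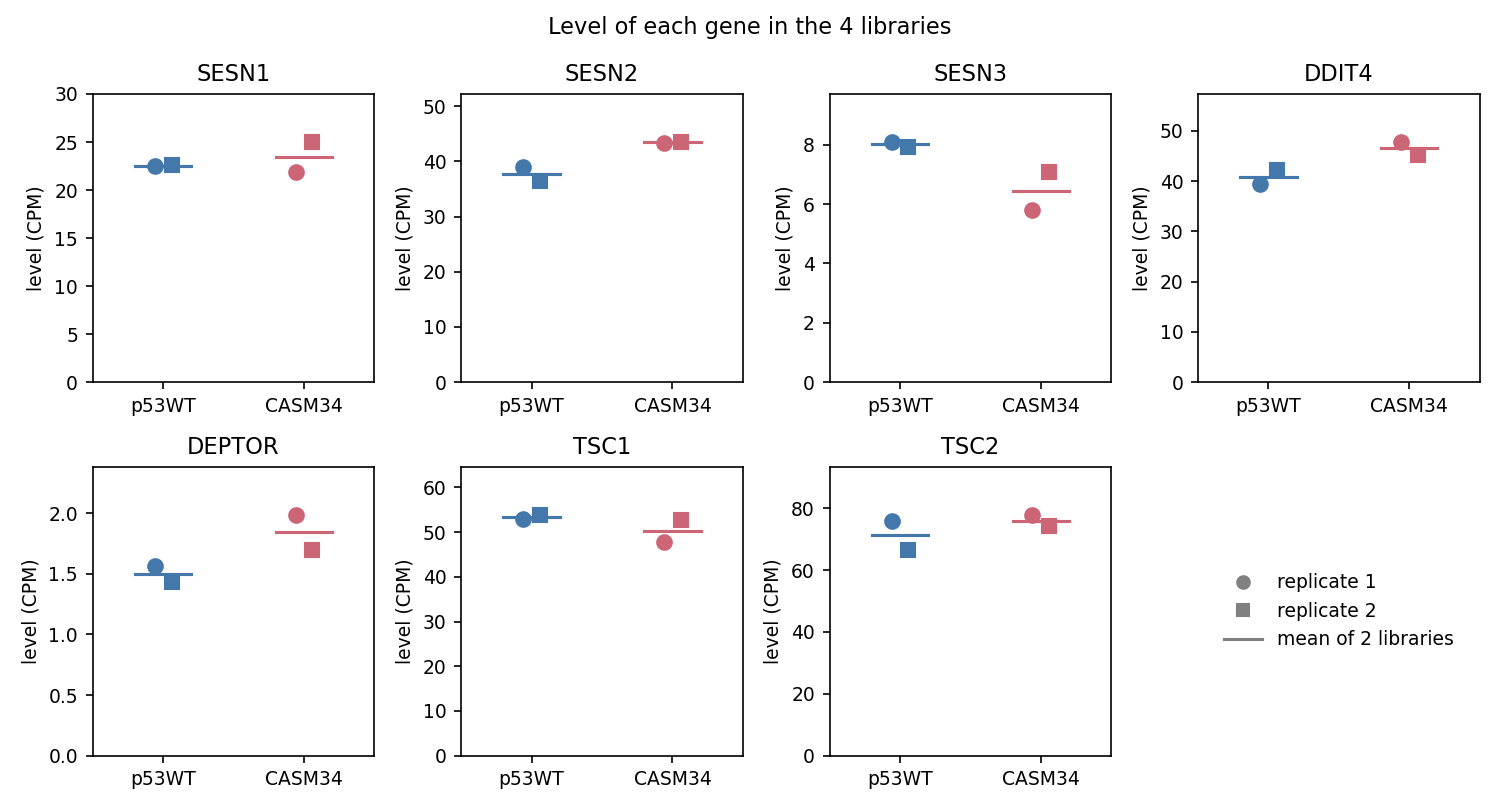
Level in CPM (y axis, from 0, its own scale in each panel) of the 7 genes in each library, with circles for replicate 1, squares for replicate 2 and a line for the mean of 2 libraries. SESN2, DDIT4 and DEPTOR lie higher in both CASM34 libraries, SESN3 and TSC1 lower in both, and the groups of SESN1 and TSC2 overlap.

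The order of the levels per length was read in TPM, the deposited unit that divides by effective transcript length. DDIT4 was the most abundant, with a mean of 39.0 TPM over the 4 libraries (35.5 to 42.7), followed by TSC2 at 23.6 TPM (22.0 to 25.5). SESN2 and TSC1 came next at 15.2 and 15.0 TPM and did not differ beyond their spread, as their ranges overlapped. SESN1 was at 10.7 TPM (9.94 to 12.1). DEPTOR and SESN3 were lowest at 1.27 and 0.948 TPM, with overlapping ranges of 0.83 to 1.69 and 0.76 to 1.12 TPM. The ranges of all other neighbours in this order were separate.

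SESN1 (ENSG00000080546.14, GRCh38 chromosome 6, 108986437 to 109094819, minus strand), the sestrin first described as a p53 target, had nearly equal CPM in both groups. It lay at 22.5 and 22.6 CPM in p53WT and at 21.9 and 25.0 CPM in CASM34. In CPM the CASM34 libraries fell on either side of the p53WT libraries, so the groups overlapped. Per length they did not, at 9.94 and 10.2 TPM in p53WT and 10.6 and 12.1 TPM in CASM34. The log2 fold change was 0.05 (SE 0.09, 95% interval -0.14 to 0.24, edgeR adjusted p = 0.808). It turned to -0.04 without CASM34 replicate 2. The interval over all 4 libraries, without any offset, reaches a 1.18-fold higher level at most. With an offset for the trend on GC content and transcript length the value was 0.10 (95% interval -0.08 to 0.28, edgeR adjusted p = 0.691). It was 0.17 with the effective length offset (edgeR adjusted p = 0.584) and 0.16 in limma on log2(TPM + 1) (adjusted p = 0.609).

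The effective transcript length, which the authors' RSEM run estimates from the mix of transcripts, did not overlap between the groups for SESN1, DDIT4, TSC1 and TSC2, 4 of the 7 genes, against 29.4% of all tested genes. For SESN1 it was 2709 and 2613 bases in p53WT and 2430 and 2447 bases in CASM34, shorter in both CASM34 libraries. SESN1 has 7 transcripts in GENCODE 29. Of its 3 protein-coding ones, 1 starts at the upstream site, at 109094819, and has 3509 bases. The other 2 start inside the gene, at 109008988 and 109009555, and have 2718 and 2676 bases. The transcripts that are not protein-coding are shorter, at 381 to 920 bases. Which of the 7 transcripts go with the length shift was not tested. The window with the p53 half-site printed above belongs to the start at 109008988. The log2 ratio was -0.13 for SESN1, and 12.5% of tested genes had both no overlap and a shift at least as large. It was 0.11 for TSC2 (13.6% of genes), -0.04 for TSC1 (23.2%) and -0.03 for DDIT4 (25.5%). The TSC1 groups were barely apart, at 4259 and 4047 bases in p53WT and 4042 and 4045 bases in CASM34. For comparison, SESN2, with only 1 transcript, ran from 3157 to 3162 bases over the libraries. Reads per transcript were not analysed here, and the length shifts were not tested.

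SESN2 (ENSG00000130766.5, chromosome 1, 28259527 to 28282491, plus strand), the leucine-sensing sestrin, had the smallest adjusted p of the 7 genes. It lay at 38.9 and 36.5 CPM in p53WT and at 43.3 and 43.6 CPM in CASM34. Both CASM34 libraries were higher, and the groups did not overlap. The log2 fold change was 0.20 (SE 0.06, 95% interval 0.07 to 0.34), a 1.15-fold difference that did not pass (edgeR adjusted p = 0.114). Its transcript is GC-rich at 59.5%, and the 978 tested genes within 1 percentage point of that value had a median log2 fold change of 0.09. With an offset that takes out the trend on GC content and transcript length within each library, SESN2 came to 0.05 (95% interval -0.07 to 0.18, edgeR adjusted p = 0.773). Only 1 SESN2 transcript is in the deposited tables, and its effective length was 3157 to 3162 bases in the 4 libraries.

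SESN3 (ENSG00000149212.12, chromosome 11, 95165513 to 95232541, minus strand), the FOXO-linked sestrin, was the scarcest per length and leaned the other way. It had 176 and 205 counts (8.10 and 7.93 CPM) in p53WT and 155 and 129 counts (5.80 and 7.07 CPM) in CASM34. Both CASM34 libraries were lower, replicate 1 more so, and the groups did not overlap. The log2 fold change was -0.33 (SE 0.15, 95% interval -0.64 to -0.01), which did not pass (edgeR adjusted p = 0.271). It was -0.31 with the GC and length offset (95% interval -0.60 to -0.01, edgeR adjusted p = 0.405), -0.18 without CASM34 replicate 1 and -0.47 without CASM34 replicate 2. SESN3 transcripts have 40.5% GC, and the 1291 tested genes near that value had a median of -0.07. The antisense gene LNCRNA-IUR overlaps the whole span of SESN3, 67029 bases with introns included. SESN3 counts were whole in all 4 libraries, so they show no reads split with another gene model. The strand setting is not given, and the overlap of exons was not read. Whether the 3 sestrins differ from one another in their response was not tested.

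**Figure D2:**
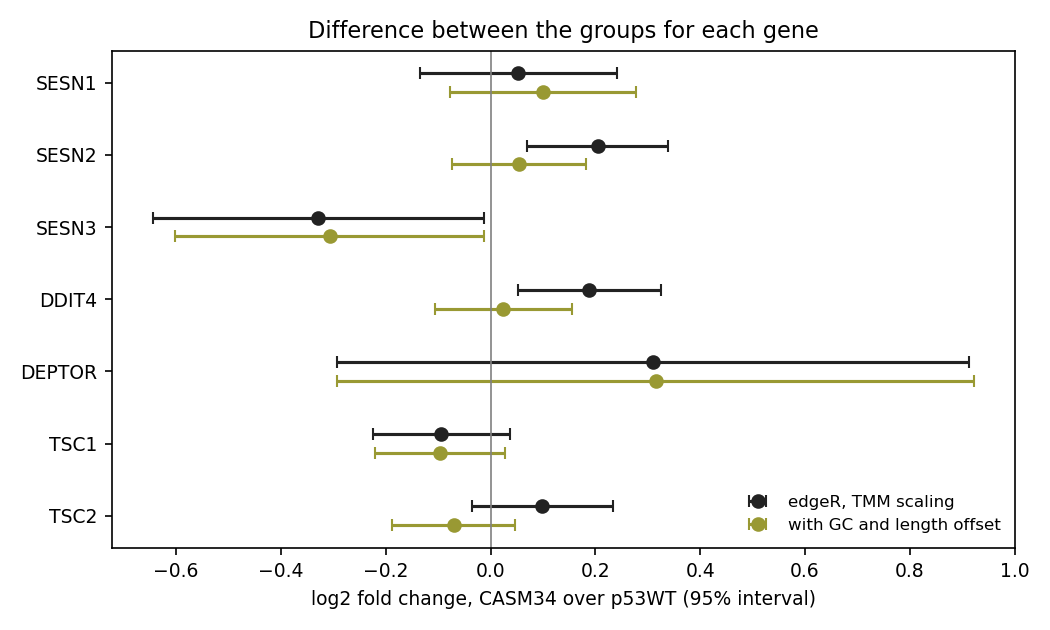
Log2 fold change of CASM34 over p53WT (x axis) with 95% intervals for each of the 7 genes, in black by edgeR with TMM scaling and in olive with the GC and length offset. The offset moves SESN2 from 0.20 to 0.05, DDIT4 from 0.19 to 0.02 and TSC2 from 0.10 to -0.07. It moves SESN1 from 0.05 to 0.10 and leaves SESN3, DEPTOR and TSC1 near their places.

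DDIT4 (ENSG00000168209.6, chromosome 10, 72273920 to 72276036, plus strand), the stress-induced inhibitor that acts through TSC2, was slightly higher in CASM34. It lay at 39.4 and 42.3 CPM in p53WT and at 47.9 and 45.2 CPM in CASM34. Both CASM34 libraries were above both p53WT libraries. The log2 fold change was 0.19 (SE 0.06, 95% interval 0.05 to 0.32), a 1.14-fold difference that did not pass (edgeR adjusted p = 0.147). Its transcripts have 61.2% GC, the 910 tested genes near that value had a median of 0.12, and with the GC and length offset DDIT4 came to 0.02 (95% interval -0.11 to 0.16, edgeR adjusted p = 0.919). The antisense gene DDIT4-AS1 overlaps the span of DDIT4 by 1066 bases, and the strand setting is not given. DDIT4 counts were whole in all 4 libraries, so they show no reads split with another gene model.

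DEPTOR (ENSG00000155792.10, chromosome 8, 119873717 to 120050913, plus strand), the subunit that inhibits mTOR directly, was near the limit of what these libraries measure. It had 34 and 37 counts (1.56 and 1.43 CPM) in p53WT and 53 and 31 counts (1.98 and 1.70 CPM) in CASM34. Both CASM34 libraries were higher in CPM, but the 95% interval of the log2 fold change of 0.31 ran from -0.29 to 0.91 (SE 0.28, edgeR adjusted p = 0.621). The standard error of DEPTOR was larger than those of SESN2 (0.06) and SESN3 (0.15), which did not pass either. What size of difference could be detected for DEPTOR at this depth was not tested. The effective length scattered from 1167 to 2264 bases, with both extremes in p53WT.

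TSC1 (ENSG00000165699.15, chromosome 9, 132891348 to 132946874, minus strand), which encodes hamartin, the scaffold of the TSC complex, lay at 53.03 and 53.8 CPM in p53WT and at 47.9 and 52.6 CPM in CASM34. CASM34 replicate 1 was the lowest, while replicate 2 lay just under the p53WT libraries. The log2 fold change was -0.09 (SE 0.06, 95% interval -0.22 to 0.04, edgeR adjusted p = 0.468), with -0.02 without CASM34 replicate 1 and -0.16 without CASM34 replicate 2.

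TSC2 (ENSG00000103197.18, chromosome 16, 2047465 to 2089487, plus strand), which encodes tuberin, the subunit that acts on RHEB, lay at 75.8 and 66.5 CPM in p53WT and at 77.7 and 74.2 CPM in CASM34. The groups overlapped, since p53WT replicate 1 was above CASM34 replicate 2. The log2 fold change was 0.10 (SE 0.06, 95% interval -0.04 to 0.23, edgeR adjusted p = 0.457). It was -0.07 with the GC and length offset, and leaving out p53WT replicate 2 gave 0.01, against 0.19 when p53WT replicate 1 was left out (edgeR adjusted p = 0.260) and 0.06 for CASM34 replicate 1. Per length the levels were 25.5 and 22.0 TPM in p53WT and 22.5 and 24.2 TPM in CASM34, where the fold change turned to -0.02 on the log2(TPM + 1) scale. TPM divides by the effective length, which for TSC2 was 3563 and 3561 bases in p53WT and 4085 and 3624 bases in CASM34. TSC2 counts were fractional in all 4 libraries, so they hold reads shared with other gene models, and the gene overlaps PKD1 by 778 bases and NTHL1 by 402 bases on the other strand.

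**Figure D3:**
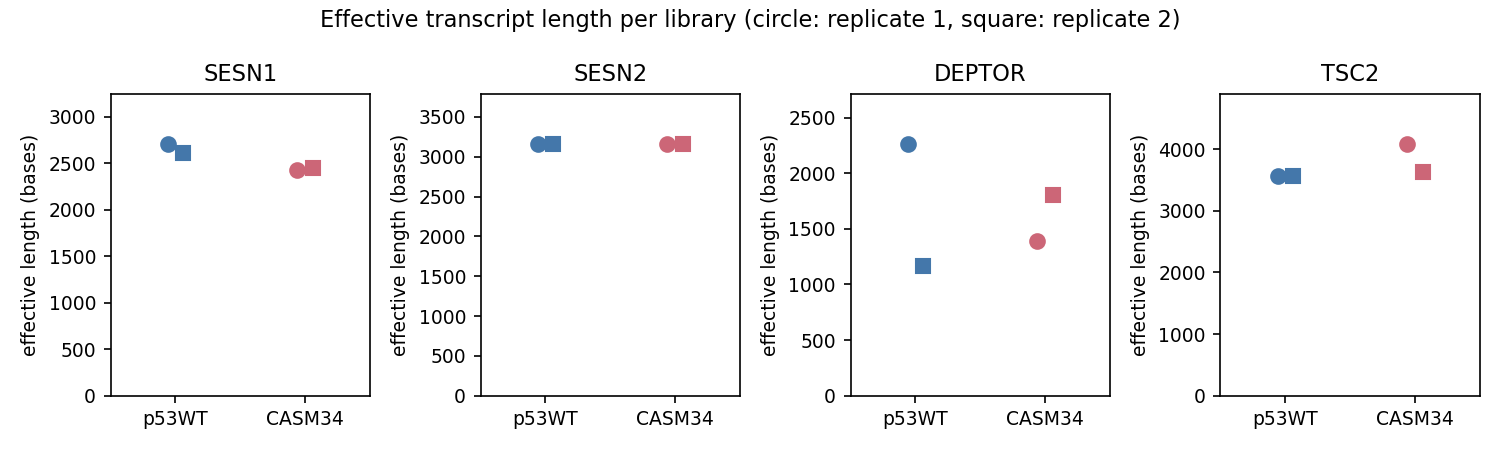
Effective transcript length in bases (y axis, from 0, its own scale in each panel) of SESN1, SESN2, DEPTOR and TSC2 in each library, with circles for replicate 1 and squares for replicate 2. SESN1 is shorter in both CASM34 libraries, SESN2 with its 1 transcript is level at 3157 to 3162 bases, DEPTOR scatters within p53WT, and TSC2 is longer in CASM34, mostly in replicate 1.

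The transcripts of the 7 genes differ widely in GC content, along which the fold changes of all genes drifted. SESN2, DDIT4 and TSC2 have 59.5% to 61.2% GC, SESN1 and SESN3 40.5% to 41.2%, and TSC1 and DEPTOR 48.6% and 49.3%. TSC2 at 0.10 lay just below the median of 0.12 of the 912 genes near its GC content. SESN1 at 0.05 lay above the median of -0.07 of the 1369 genes near its own. The median of the 7 genes was 0.02 with the GC and length offset, where 0 of the 7 passed and 0.351% of all genes did.

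**Figure D4:**
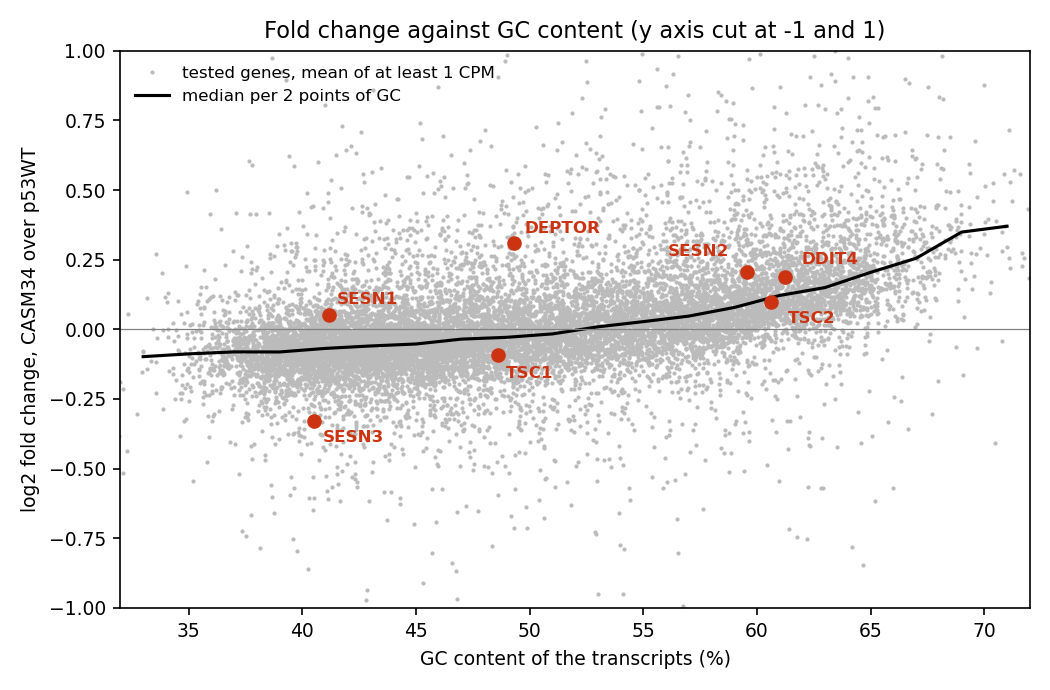
Log2 fold change of CASM34 over p53WT (y axis, shown from -1 to 1) against GC content of the transcripts in percent (x axis), with grey points for tested genes of at least 1 CPM, a black line for their median in steps of 2 percentage points and red points for the 7 genes. The median line climbs with GC content, SESN2, DDIT4 and TSC2 lie on its rising part, and SESN3 lies below it.

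Few genes around these brakes passed the test. Of 94 genes in 8 lists of the mTORC1 pathway 88 were tested, 1 rose, 0 fell and 87 did not pass, against 1.95% of all tested genes. At an unadjusted p under 0.05 there were 12 of the 88, against 17.1% of all genes, and DESeq2 and limma-voom each called 1. Of the 88, 43 lay above 0 and 45 below, with a median of -0.01. The gene that rose came from the list of AMPK and LKB1, where 4 of 9 tested genes lay above 0 and 5 below. This gene was STK11, which encodes LKB1, the kinase that activates AMPK. It lay at 85.3 and 84.7 CPM in p53WT and at 99.6 and 102 CPM in CASM34, a rise of 0.25 on the log2 scale (SE 0.05, edgeR adjusted p = 0.0207). STK11 transcripts have 64.4% GC, and with the GC and length offset the value was -0.00087 (edgeR adjusted p = 0.996). It also did not pass without p53WT replicate 1 or without p53WT replicate 2 (edgeR adjusted p = 0.108 and 0.0900, with log2 fold changes of 0.25 and 0.24).

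In the other lists 0 genes passed by edgeR, and the gene of each with the smallest adjusted p is named here. Among 11 mTOR complex subunits it was AKT1S1, an mTORC1 inhibitor also called PRAS40, at 0.16 (SE 0.04, edgeR adjusted p = 0.0874), and at -0.04 under the GC and length offset. The kinase gene MTOR itself, singled out after its values were seen, lay at 136 and 137 CPM in p53WT and 135 and 133 CPM in CASM34. Among 16 genes of GATOR1, GATOR2, KICSTOR and the amino acid sensors, the partners of the sestrins, 8 lay above 0 and 8 below, and the smallest adjusted p was that of SEH1L, a GATOR2 and nuclear pore subunit, at -0.14 (SE 0.05, edgeR adjusted p = 0.137). Among 12 genes of the RAG GTPases, Ragulator and folliculin it was FLCN, the folliculin gene, at 0.14 (SE 0.06, edgeR adjusted p = 0.296), and at 0.04 under the GC and length offset.

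Downstream of TSC2, RHEB lay at 190 and 205 CPM in p53WT and 198 and 197 CPM in CASM34 (singled out after its values were seen). The smallest adjusted p in its list was that of RHEBL1, a RHEB paralog, at -0.32 (SE 0.21, edgeR adjusted p = 0.482). RHEBL1 lay at -0.10 without CASM34 replicate 2, -0.19 without p53WT replicate 1 and -0.65 without CASM34 replicate 1. DDIT4L, the paralog of DDIT4, had 0 counts in all 4 libraries, which allows up to 0.112 to 0.164 CPM at 3 counts per library, for counting error only. Among 14 tested genes of PI3K and AKT signalling it was PIK3R2, a regulatory PI3K subunit, at 0.15 (SE 0.05, edgeR adjusted p = 0.117), and at -0.12 under the GC and length offset. Among 15 tested substrates and effectors of mTORC1 it was EIF4E, the cap-binding factor, at -0.16 (SE 0.05, edgeR adjusted p = 0.129), and at -0.10 under the GC and length offset or without p53WT replicate 2.

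**Figure D5:**
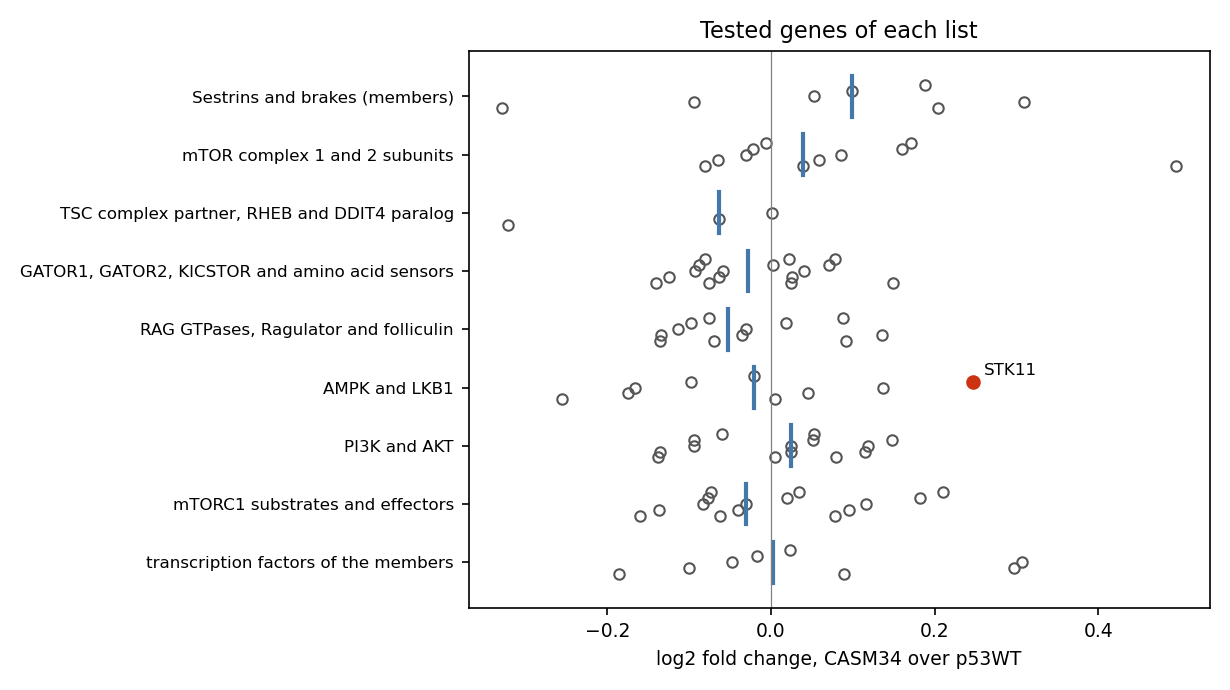
Log2 fold change of CASM34 over p53WT (x axis) for each tested gene of the 7 members and of the 8 pathway lists (rows), with open circles for genes that did not pass, a filled red circle for STK11, which passed, and a blue bar for the median of the list. All medians lie between -0.06 and 0.10.

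The factors known to act on the promoters of the sestrins and DDIT4 showed no change that passed. Of 10 such genes 8 were tested, with 4 above 0 and 4 below. TP73, a p53 family member, had the smallest adjusted p, at 12.3 and 10.5 CPM in p53WT and 13.6 and 14.4 CPM in CASM34, 0.30 apart on the log2 scale (SE 0.11, edgeR adjusted p = 0.202). That value was 0.10 under the GC and length offset and 0.18 without p53WT replicate 2. ATF4, singled out after its values were seen, lay at 210 and 223 CPM in p53WT and 203 and 202 CPM in CASM34. TP63 and NUPR1 were too low to test.

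SESN2 was the gene of the 7 with the smallest adjusted p, and its pattern over the 4 libraries was most like those of STK11, PRKAB1 and IRS1 among the pathway genes. The root mean square difference of centred log2 CPM was 0.0386, 0.0407 and 0.0456. PRKAB1, a regulatory subunit of AMPK, and IRS1, an adaptor of the insulin receptor, had log2 fold changes of 0.14 (SE 0.06) and 0.12 (SE 0.06) and missed the threshold (edgeR adjusted p = 0.233 and 0.353). With 4 libraries this likeness is a description only.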

How the data were processed

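Poly(A) RNA of 4 H1299 libraries was sequenced, 2 with p53WT and 2 with CASM34, grouped by their titles. The submitters' processing notes name GRCh38 as the build and RSEM, STAR and Trim Galore as tools, without versions. Which annotation and which strand setting they used is not given in the sources used here. Each deposited table holds, per the file headers, the expected count of each gene from the authors' RSEM run, which shares reads between gene models. They also hold TPM, per the file headers, which divides by effective length and scales each library to a fixed total, and the effective length in bases.

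Symbols were matched by gene ID for 61804 of 61852 genes. Coordinates and transcript GC content are from GENCODE 29, promoters from RefSeq. The members, lists and alternatives were chosen with earlier results of these data known. The named genes are the 7 members, up to 3 passing genes per direction of each pathway list (or the 1 with the smallest adjusted p), the 3 pathway genes most like the leading member, CDKN1A and MDM2. Some results are not reported here.

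Counts were rounded and tested with edgeR 4.0.16 in R 4.3.3 (quasi-likelihood F test, TMM scaling, a filterByExpr minimum count of 10, no covariate, Benjamini-Hochberg adjustment over 15965 genes). Each standard error is the log2 fold change without its sign over the square root of F, and 95% intervals use the test's degrees of freedom, without adjustment for many genes. CPM uses the TMM factors. An exact permutation test of 2 against 2 cannot go below p = 0.333, so none was used. Alternatives were other scalings and filters, DESeq2 1.42.0, limma 3.58.1 (voom, and log2 TPM with pseudocounts 1 and 0.1), an effective length offset, a GC and length offset (natural splines, 5 degrees of freedom each, per library), a replicate block and leaving out each library. The libraries of a group differed by more than counting error (chi-square per degree of freedom 3.90 and 3.94), so none was a duplicate. The test was checked on simulated counts. No sample was left out.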

Additional observations from a re-analysis of the deposited data

How the results depend on the processing

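None of the 7 genes passed in 15 of the 16 alternatives, and 1 passed, SESN2, in the fit with the replicate block (log2 fold change 0.20, edgeR adjusted p = 0.0429; 0.0429 to 0.833 over its alternatives). The replicate numbers do not pair the libraries by any label, there are only 2 pairs, and the deviations of the first libraries from their group means had a correlation of 0.0876 across 9947 genes. Of 110 values of the 7 genes under the alternatives, 103 kept their direction and side of the threshold and 6 reversed: SESN1 to -0.0402 without CASM34 replicate 2 (-0.0402 to 0.153 when 1 library was left out), and TSC2 to -0.0227 in limma on log2(TPM + 1), -0.0234 on log2(TPM + 0.1), -0.0304 with the effective length offset, -0.0705 with the GC and length offset and -0.0740 when the replicate block was added to it. Among the pathway genes, AKT1S1 and PIK3R2 turned to -0.0443 and -0.12 with the GC and length offset and to -0.0431 and -0.11 with the block as well, and STK11 turned to -0.00087 with that offset. DESeq2 gave SESN3, DEPTOR and RHEBL1 no adjusted p.

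The pathway count of 1 became 2 with no filter on low counts, 0 in limma on log2(TPM + 1), on log2(TPM + 0.1), with the effective length offset and with the GC and length offset, 6 with the replicate block (4 higher and 2 lower, among them AKT1S1, PIK3R2 and EIF4E with adjusted p = 0.0153, 0.0394 and 0.0426) and 2, both lower, with the replicate block and the GC and length offset, and 0 to 3 when 1 library was left out. The count over all genes of 312 became 777 with no filter, 195 in DESeq2, 0 in both TPM fits (1820 and 1811 at an unadjusted p under 0.05), 3 with the effective length offset, 55 with the GC and length offset (33 higher and 22 lower, against 257 and 55), 1159 with the replicate block (260 with the GC and length offset as well) and 109 to 919 when 1 library was left out. The causes of these shifts were not tested. The lowest counts per library were those of DEPTOR, 31 to 53, and SESN3, 129 to 205, and their standard errors of 0.28 and 0.15 were the largest of the 7 genes.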
